A study of Mus musculus with 24 samples.

Results

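Myosin heavy chains are the motor proteins of the sarcomere, and the isoform that a muscle fibre makes is the usual basis for calling it fast or slow. Described here are the 8 genes listed as skeletal myosin heavy chain isoforms (Myh1, Myh2, Myh3, Myh4, Myh7, Myh8, Myh13 and Myh14), found by symbol among the 47643 genes of the count table. All 8 were found, and all 8 were among the 10159 genes that passed the expression filter. The samples came from the plantaris, a fast hindlimb muscle, of wild type C57BL/6 mice. Of these samples, 11 came from mice kept in normal air and 13 from mice exposed to tobacco smoke over 16 weeks. The labels gave no age, sex or batch and did not say whether samples were separate animals, so p-values measure the spread between these samples. The series title concerns chronic activity of the aryl hydrocarbon receptor and muscle impairment by smoking, and the comparison asks which muscle transcripts differ after smoke.

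As background, adult mouse limb muscle uses 4 sarcomeric heavy chains. Myh7 encodes the slow chain of type I fibres, and Myh2, Myh1 and Myh4 encode the fast chains of type IIa, IIx and IIb fibres, in order of rising shortening speed. Myh3 (embryonic) and Myh8 (neonatal) are made in developing and regenerating fibres, and Myh13 encodes the extraocular chain of eye and laryngeal muscles. Myh14 encodes the non-muscle myosin heavy chain II-C, so that the label of skeletal isoforms does not hold for it by function. In the GENCODE annotation (GRCm38), 6 members lie side by side on the plus strand of chromosome 11. In order these are Myh3 (67078300 to 67102291), Myh2 (67171027 to 67197517), Myh1 (67200052 to 67224575), Myh4 (67238029 to 67260446), Myh8 (67277124 to 67308634) and Myh13 (67321658 to 67371586). Myh7 lies on the minus strand of chromosome 14 (54970684 to 54994626) and Myh14 on the minus strand of chromosome 7 (44605803 to 44670843).

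The windows around the starts of Myh2, Myh1 and Myh4 are shown because these 3 neighbouring genes gave nearly all myosin heavy chain counts. Each window is the RefSeq sequence (GRCm38.p6, plus strand) from 250 bases before to 50 bases after the gene's start. RefSeq places the starts of Myh1 (67200102) and Myh4 (67237812) at other bases than GENCODE does. Capitals mark the longest run of bases shared by all 3. The windows are chr11:67170777-67171076 for Myh2, chr11:67199852-67200151 for Myh1 and chr11:67237562-67237861 for Myh4.
Myh2: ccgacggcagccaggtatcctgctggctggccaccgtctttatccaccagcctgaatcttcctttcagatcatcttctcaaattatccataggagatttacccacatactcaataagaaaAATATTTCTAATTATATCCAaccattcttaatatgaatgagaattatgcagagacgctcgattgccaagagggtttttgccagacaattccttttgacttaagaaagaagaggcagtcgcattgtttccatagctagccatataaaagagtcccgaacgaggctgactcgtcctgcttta
Myh1: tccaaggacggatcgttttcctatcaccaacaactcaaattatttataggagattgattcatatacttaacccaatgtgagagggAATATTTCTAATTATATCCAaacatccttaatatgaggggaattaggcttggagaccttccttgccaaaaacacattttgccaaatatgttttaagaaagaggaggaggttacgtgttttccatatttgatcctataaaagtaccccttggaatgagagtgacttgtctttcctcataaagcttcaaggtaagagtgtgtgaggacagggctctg
Myh4: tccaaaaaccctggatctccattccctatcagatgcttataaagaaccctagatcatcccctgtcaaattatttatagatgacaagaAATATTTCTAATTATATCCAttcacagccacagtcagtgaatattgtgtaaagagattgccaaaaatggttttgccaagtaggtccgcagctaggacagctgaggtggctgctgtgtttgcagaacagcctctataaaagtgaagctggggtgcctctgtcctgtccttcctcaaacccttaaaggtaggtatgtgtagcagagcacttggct
The shared run of 20 bases, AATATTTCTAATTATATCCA, starts 130 bases before the start of Myh2, 165 before that of Myh1 and 163 before that of Myh4. Searched on both strands as an exact match, it was found in 3 of 32851 RefSeq start windows (0.00913%), those of the 3 adult fast genes. Near matches were not searched, and the Myh8 window holds the similar run aatacttctaattatatccg. The longest run shared by Myh4 and Myh8 was 17 bases long, and that shared by Myh4 and Myh7 was 8 bases long and occurred in 3.3% of windows. A TATA box, searched as TATAAA on both strands, was present in all 3 windows shown and in 13.6% of all windows. These matches describe the letters of the windows and were not tested against the counts.

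The counts were reads from the 3′ ends of transcripts, so they are not divided by gene length. Values are given as CPM, counts scaled to a common library size after adjustment by the TMM method. How reads that fit several paralogs were counted was not given in the sources used here. The split of reads among the similar genes Myh1, Myh2, Myh4, Myh3, Myh8 and Myh13 is therefore uncertain. This could matter most for Myh3, Myh8 and Myh13, whose counts were very small beside those of Myh4. On the opposite strand, Myhas overlaps Myh1 (2932 counts in all, against 145305 for Myh1) and 9430073C21Rik overlaps Myh2 (316 against 302386). Total counts per sample ranged from 2515697 to 4528845, and 1 count was worth 0.221 to 0.398 CPM. Markers of fast fibres were abundant: the 14 listed fast fibre genes summed to between 141520 and 214610 CPM in air and between 143790 and 183610 in smoke, against 1497 to 2361 and 1446 to 2476 for 14 listed slow fibre genes. None of 6 cardiac markers passed the filter (sums of 2.57 to 7.30 CPM in air and 2.32 to 8.29 in smoke), and Nppb, a cardiac natriuretic peptide, had 0 counts in every sample. In whole muscle, fewer fibres of a type and less RNA per fibre cannot be told apart.

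Myh4 was by far the most abundant member in all 24 samples. Its median was 38352 CPM in air and 44593 CPM in smoke, and its mean CPM over all 24 samples had rank 4 among all tested genes. Myh2 followed with medians of 3919 and 3354 CPM, and Myh1 with 1742 and 1652 CPM. The order Myh4, Myh2, Myh1, Myh14 held in 24 of 24 samples. Below them Myh14 had medians of 46.0 and 44.4 CPM, the slow Myh7 11.7 and 11.6, Myh13 8.81 and 10.4, Myh8 6.04 and 8.43, and Myh3 5.37 and 4.51. Among these last 4 the order of neighbours did not hold in every sample. Myh7 exceeded Myh13 in 16 of 24 samples, Myh13 exceeded Myh8 in 18, and Myh8 exceeded Myh3 in 21. The lowest ratio of Myh8 to Myh3 counts was 0.9 in air and 1.07 in smoke, so Myh8 was the higher in every smoke sample.

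**Figure D1:**
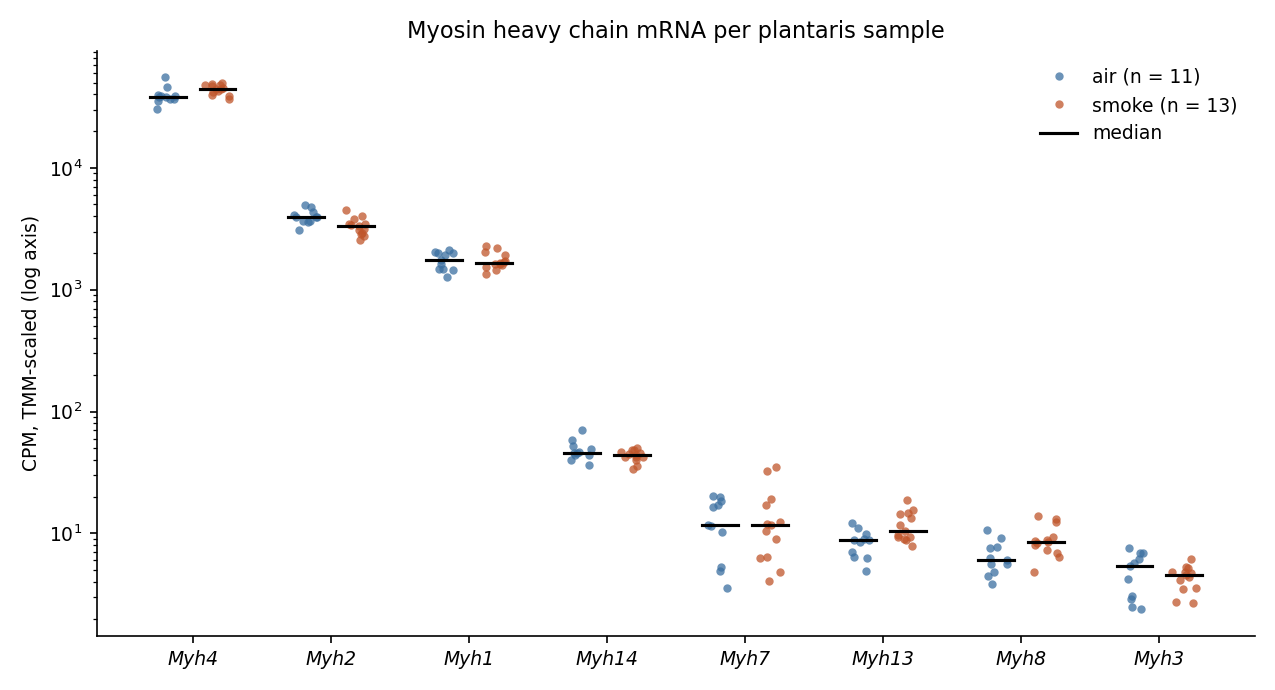
CPM values (log axis) of the 8 members in 11 air and 13 smoke samples, with 1 point per sample and black lines at group medians. Myh4 lies between 30571 and 55257 CPM, Myh2 and Myh1 between 1272 and 4943, and the slow, developmental and extraocular genes at or below 34.8, with overlapping groups for every gene.

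Expressed as shares of the summed counts of the 8 members, the adult fast isoforms took 99.8% ± 0.0176 in the 11 air samples and 99.8% ± 0.0274 in the 13 smoke samples (mean ± SD, as for all such values below). Within the fast class, Myh4 took 86.9% ± 2.43 in air and 89.4% ± 1.93 in smoke. Myh2 took 9.00% ± 1.71 and 6.82% ± 1.38, and Myh1 3.94% ± 0.977 and 3.57% ± 0.727. The slow share (Myh7) was 0.0281% ± 0.0134 in air and 0.0284% ± 0.0198 in smoke. The developmental share (Myh3 and Myh8) was 0.0251% ± 0.00603 and 0.0272% ± 0.00649. Differences of smoke minus air were 0.011 ± 0.00926 percentage points (SE) for the fast share, 0.00023 ± 0.00682 for the slow share and 0.0021 ± 0.00256 for the developmental share, all smaller than the SD within either group. These shares do not depend on library scaling, and as sums over chosen members they were given no p-value.

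Inside the fast class, the mean shares of Myh2 and Myh4 differed in opposite directions. In percentage points, these differences cannot be compared with those of the slow and developmental shares, which were far smaller in both groups. The Myh2 share was 2.18 percentage points lower in smoke (SE 0.642), and it was under the air mean in 11 of 13 smoke muscles. It ran from 5.21% through a median of 9.07% to 10.8% in air, and from 4.76% through 6.65% to 9.44% in smoke. The groups overlapped, and 5 of 11 air samples lay above every smoke sample while 1 smoke sample lay below every air sample. The Myh4 share was 2.56 percentage points higher in smoke (SE 0.908), above the air mean in 11 of 13 samples. Counts of Myh2 per count of Myh4 ran from 0.0564 to 0.128 in air (median 0.105) and from 0.0517 to 0.111 in smoke (median 0.0736). Per count of Myh1, Myh2 had a median of 2.23 counts in air and 1.86 in smoke, and 7 smoke samples lay below every air sample in this ratio. Since the shares sum to a constant, the differences of single shares are not independent of each other. The Myh14 share was under the air mean in all 13 smoke muscles, at 0.107% ± 0.0132 in air and 0.0884% ± 0.00883 in smoke. All 8 members together took 4.49% ± 0.379 of all counts in air and 4.88% ± 0.311 in smoke.

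**Figure D2:**
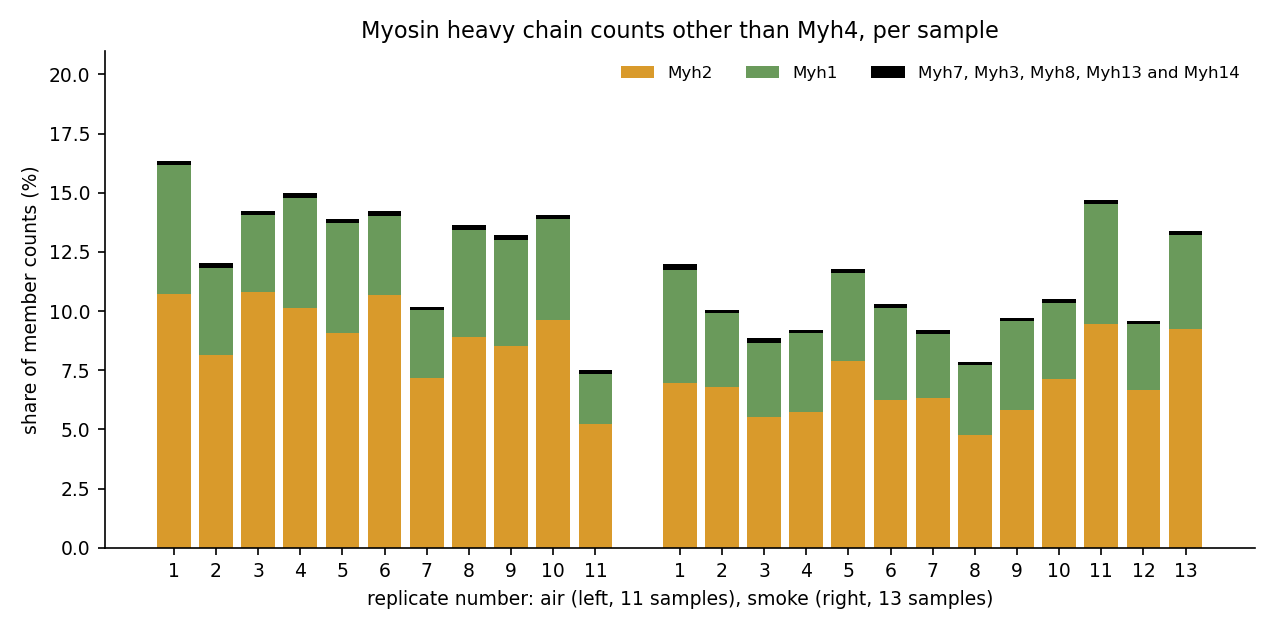
Stacked bars of the percentage of member counts that were not Myh4, per sample, for 11 air samples (left) and 13 smoke samples (right). Myh2 makes up most of each bar, from 5.21% to 10.8% in air and from 4.76% to 9.44% in smoke, and the 5 genes other than Myh4, Myh2 and Myh1 are a thin band on top.

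Of the 8 members, 0 were called in either direction by the edgeR quasi-likelihood test (Benjamini-Hochberg adjusted p under 0.05 over all 10159 genes). Of all tested genes, 1.92% were called, 0.728% as higher and 1.19% as lower in smoke. Before adjustment, 4 members (Myh2, Myh4, Myh8 and Myh13) had a p under 0.05, against 15.5% of all tested genes. DESeq2, limma voom and edgeR with no expression filter each called 1 member, Myh2, as lower in smoke, beside 2.28%, 1.14% and 0.467% of the genes they tested. The CPM values of the groups overlapped for all 8 members, and 0.0295% of tested genes had groups that did not overlap. The median log2 ratio of smoke to air (the fold change on a log2 scale) was 0.074 for the members, beside 0.0066 over all tested genes.

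Myh2, the type IIa chain of fast oxidative fibres, came nearest to the threshold. It had 3116, 3919 and 4943 CPM in air (lowest, median, highest) and 2555, 3354 and 4492 CPM in smoke. The lowest 5 smoke samples lay below every air sample, and 2 air samples lay above every smoke sample. The log2 ratio was −0.27 (SE 0.077, edgeR adjusted p = 0.0627), or 1.20-fold lower, and 11 of 13 smoke samples were under the mean of air. The test passed without air replicate 11 (adjusted p = 0.0188), smoke replicate 10 (0.0429), smoke replicate 11 (0.0387) or smoke replicate 13 (0.0159), each time by edgeR on the remaining samples. Over all 24 fits that left out 1 sample, the edgeR adjusted p of Myh2 ran from 0.0159 to 0.129, the highest without air replicate 3, and the log2 ratio from −0.31 to −0.23.

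Myh4, the type IIb chain of fast glycolytic fibres, had 30571, 38352 and 55257 CPM in air and 36546, 44593 and 49440 CPM in smoke. The air range enclosed the whole smoke range, because air replicate 11 was the highest of all samples and air replicate 1 the lowest. The log2 ratio was 0.16 (SE 0.068, edgeR adjusted p = 0.228), with 10 of 13 smoke samples above the air mean. Without air replicate 11, which also had the lowest TMM factor (0.857), the test passed at a log2 ratio of 0.21 (edgeR adjusted p = 0.0312). Myh1, the type IIx chain that lies between them in speed, had 1272, 1742 and 2124 CPM in air and 1335, 1652 and 2292 CPM in smoke. Its log2 ratio was 0.0025 (SE 0.084, edgeR adjusted p = 0.993), with an approximate 95% interval from −0.16 to 0.17. The sign of the Myh1 difference changed with the method and with the samples left out.

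Myh7, the slow chain of type I fibres, had 13 to 80 counts per sample in air and 15 to 124 in smoke. This came to 3.57, 11.7 and 20.2 CPM in air and 4.08, 11.6 and 34.8 CPM in smoke. The medians were close, and smoke replicates 1 and 3 lay above every air sample at 34.8 and 32.2 CPM. The log2 ratio was 0.15 (SE 0.30, edgeR adjusted p = 0.875), and its approximate 95% interval ran from −0.44 to 0.73. It was −0.056 without smoke replicate 1 and −0.033 without smoke replicate 3. Inside Myh7 on the opposite strand lies Gm17428, with 765 counts in all against 1084 for Myh7. Strand use in counting was not given in the sources used here, so reads of these genes cannot be told apart.

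Myh7 was also the most variable member. Its biological coefficient of variation in the fit (the spread between samples of a group beyond counting error) was 48.3%, against 16.6% for genes of its abundance. That ratio of 2.91 was above the ratio of 99.8% of tested genes. The other 7 members had ratios between 0.976 (Myh3) and 1.28 (Myh1).

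The developmental pair gave log2 ratios of opposite sign. Myh8, the neonatal chain, had 3.86, 6.04 and 10.7 CPM in air and 4.84, 8.43 and 13.8 CPM in smoke. In smoke 11 of 13 samples lay above the air mean and 3 above every air sample. The log2 ratio of Myh8 was 0.46 (SE 0.17), 1.38-fold, and did not pass (edgeR adjusted p = 0.155). Myh3, the embryonic chain, had 2.39, 5.37 and 7.60 CPM in air and 2.69, 4.51 and 6.17 CPM in smoke. Its log2 ratio was −0.14 (SE 0.19, edgeR adjusted p = 0.794). At 7 to 25 counts of Myh3 per sample, counting error alone gives a coefficient of variation of 25.2% at the mean count, and the approximate 95% interval of its log2 ratio ran from −0.52 to 0.24. The difference between the effects on Myh8 and Myh3 was not tested.

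Myh13, the extraocular chain, had 4.89, 8.81 and 12.1 CPM in air and 7.93, 10.4 and 18.8 CPM in smoke. In smoke 5 of 13 samples lay above every air sample, and 4 of 11 air samples lay below every smoke sample. Its log2 ratio was 0.48 (SE 0.15), 1.40-fold, and did not pass (edgeR adjusted p = 0.0835), with 12 of 13 smoke samples above the air mean. At 18 to 64 counts per sample, Myh13 stood far under the fast limb isoforms. It was the 1 gene that passed the filter among 6 listed spindle and extraocular muscle markers, whose sum was 8.75 to 16.2 CPM in air and 12.1 to 24.2 CPM in smoke. That sum includes Myh13 itself, with 851 counts in all against 146 or fewer for each of the others, so it mostly repeats the Myh13 values. Myh14, the non-muscle chain, had 36.4, 46.0 and 70.5 CPM in air and 33.8, 44.4 and 50.1 CPM in smoke, a log2 ratio of −0.15 (SE 0.084, edgeR adjusted p = 0.394).

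Among 6 other heavy chain genes, 3 passed the filter and 0 were called (edgeR, 2 at an unadjusted p under 0.05). Myh11, the smooth muscle chain, had 7.15 ± 1.92 CPM in air and 10.1 ± 2.06 CPM after smoke, a log2 ratio of 0.50 (SE 0.14, edgeR adjusted p = 0.0558), and was called by DESeq2 (adjusted p = 0.0359) and by edgeR without air replicate 7 (0.0213) or smoke replicate 4 (0.0371). Of the non-muscle chains, Myh10 had a log2 ratio of −0.51 (edgeR adjusted p = 0.172) and Myh9 of −0.13 (edgeR adjusted p = 0.520). Myh7b, a slow-type chain found in muscle spindles, had 146 counts over all 24 samples, the cardiac Myh6 had 85 and Myh15 had 10.

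Thin filament, light chain and calcium handling genes of slow and fast fibres are known to vary with the heavy chains and were not used in choosing the members. Of 14 listed slow fibre genes, 13 were tested and 2 were called, both lower in smoke (edgeR, 9 of 13 with a negative log2 ratio, median −0.22). Before adjustment, 6 of the 13 had a p under 0.05. Csrp3, a stretch-responsive LIM protein of the Z-disc, fell from 233.8 ± 34.0 to 144 ± 72.7 CPM, a log2 ratio of −0.70 (SE 0.16, edgeR adjusted p = 0.0142). Actn2, a Z-disc actinin that fast fibres also make, fell from 435 ± 28.8 to 373 ± 47.8 CPM, a log2 ratio of −0.22 (SE 0.060, edgeR adjusted p = 0.0407). The call of Actn2 was lost when any of 16 of the 24 samples was left out (edgeR adjusted p up to 0.0745), with no expression filter (0.0502) and with the replicate number as a block (0.0638), and held without air replicates 2, 6, 7 or 11 or smoke replicates 1, 10, 11 or 13. The light chain Myl3 (−0.29, edgeR adjusted p = 0.150) did not pass, and the abundant Myoz2 and Mybpc1 had log2 ratios of 0.035 and −0.024. The slow troponin genes Tnnc1, Tnni1 and Tnnt1 had positive log2 ratios of 0.59, 0.43 and 0.016. They did not pass either (edgeR adjusted p = 0.477, 0.568 and 0.986). Of the 14 listed fast fibre genes, all tested, 0 were called by edgeR, DESeq2 or limma voom, 0 had an unadjusted p under 0.05 in edgeR, and the median log2 ratio was −0.032. The most abundant of them, the troponin subunits Tnnc2 and Tnni2, parvalbumin (Pvalb) and the regulatory light chain Mylpf, had log2 ratios between −0.057 and 0.046. Without air replicate 11, 1 fast fibre gene was called, the fast Z-disc actinin Actn3 (log2 ratio 0.24, edgeR adjusted p = 0.0101), and so was the slow light chain Myl2 (−0.54, edgeR adjusted p = 0.0168), which was also called without smoke replicate 11 (0.0431), without air replicate 10 (0.0493) and with no expression filter (0.0132).

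**Figure D3:**
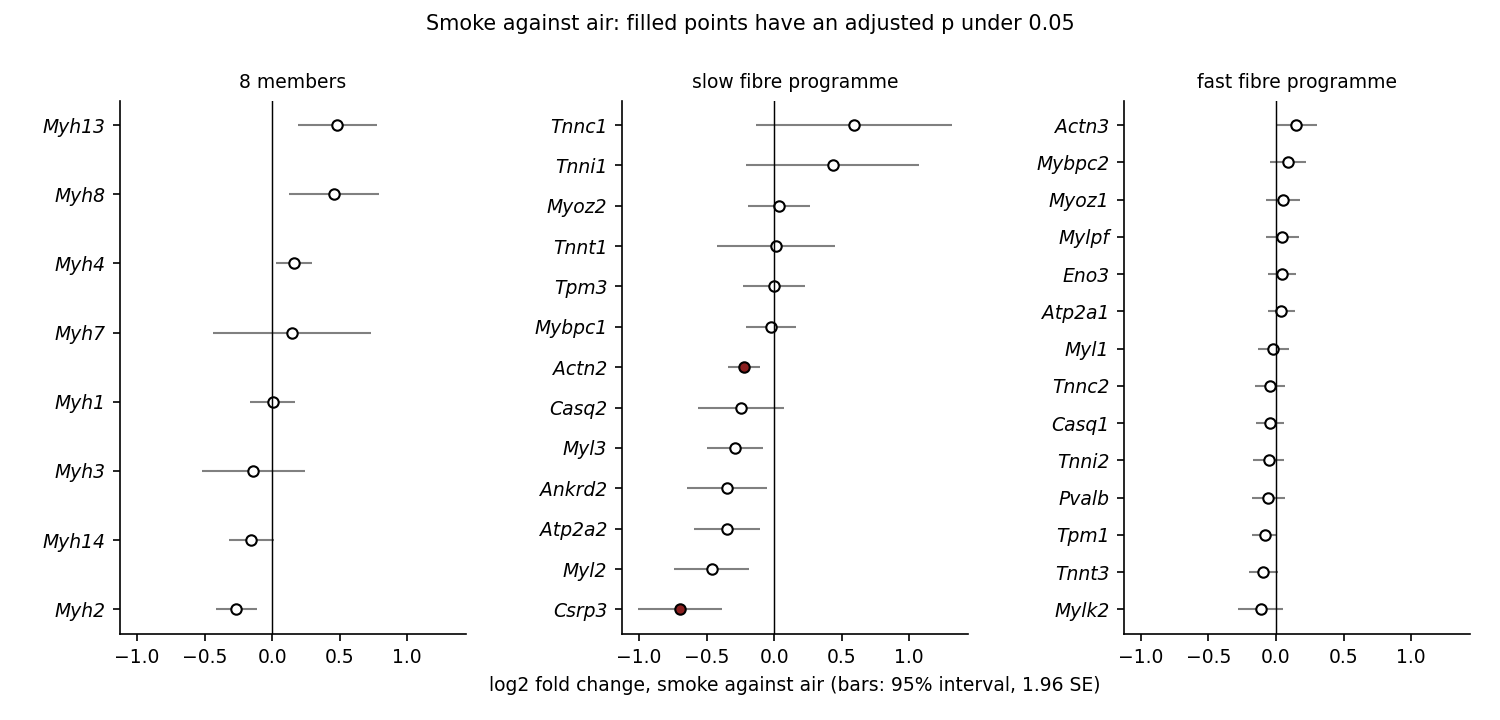
Log2 ratios of smoke against air for the 8 members, 13 tested slow fibre genes and 14 fast fibre genes, with bars for the approximate 95% interval; filled points have an adjusted p under 0.05 (edgeR). The filled points are Csrp3 and Actn2, and the fast fibre genes lie close to 0.

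Of 27 listed regulators of fibre type, 24 were tested, with 1 called higher and 2 lower (edgeR, 8 at an unadjusted p under 0.05, median log2 ratio −0.055). Maf, a large Maf transcription factor, rose from 281 ± 29.7 to 363 ± 45.4 CPM (log2 ratio 0.37, SE 0.067, edgeR adjusted p = 0.00228), and Gm15655 overlaps it on the opposite strand. Rcan1, a calcineurin regulator that is itself a calcineurin target, fell from 177 ± 43.4 to 113 ± 27.8 CPM (−0.65, SE 0.12, edgeR adjusted p = 0.00226). Hdac5, a class IIa histone deacetylase that represses MEF2 factors, fell from 62.6 ± 10.4 to 50.7 ± 4.64 CPM (−0.30, SE 0.076, edgeR adjusted p = 0.0261), and was not called without air replicate 5 (0.0549) or air replicate 8 (0.0510). The abundant Mef2c, Tbx15 and Nfix did not pass. Of 14 listed genes of myosin folding and assembly, 13 were tested and 1 was called (edgeR, 7 at an unadjusted p under 0.05). Mybph, a myosin binding protein, fell from 9.87 ± 6.84 to 4.34 ± 2.90 CPM (−1.20, SE 0.31, edgeR adjusted p = 0.0325), and was not called without air replicate 1 or 7 or smoke replicate 6, 9 or 12 (edgeR adjusted p up to 0.0894), by limma voom (0.104) or with the replicate number as a block (edgeR, 0.0702). On the opposite strand, Adora1 overlaps Mybph and Gm46555 overlaps Rcan1. The median log2 ratio of that list was −0.13. Of 14 listed genes of developing and regenerating fibres, 8 were tested and 0 were called by edgeR, 3 of them at an unadjusted p under 0.05, with a median of −0.11. The fusion factors Mymk and Mymx and the fetal receptor subunit Chrng did not pass the filter, and Chrng had 7 counts in all.

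Among markers of other cell types, some nerve and erythroid genes were called. Of 5 tested nerve and Schwann markers all were higher in smoke and 3 were called, their sum ranging from 118 to 277 CPM in air and from 178 to 856 CPM in smoke. All 5 erythroid markers were lower and 3 were called, with sums of 486 to 1444 CPM in air and 369 to 883 CPM in smoke. Of 6 connective tissue markers 5 were lower and 0 were called by edgeR (3 at an unadjusted p under 0.05), with sums of 229.2 to 367 and 203 to 376 CPM. Of 6 smooth muscle markers 3 were tested and 0 were called (edgeR, 1 at an unadjusted p under 0.05). The calls of the nerve genes Pmp22 and Prx and of the globin Hba-a2 were lost in 14, 9 and 10 of the 24 fits that left out 1 sample. Pmp22 and Prx were also not called by limma voom (adjusted p = 0.164 and 0.224) or with the replicate number as a block (edgeR, 0.190 and 0.0980). Hba-a2 was not called by DESeq2 (adjusted p = 0.0528), nor the globin Hbb-bt with the block (edgeR, 0.0702). The part of these cell types in the values of the members was not tested.

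Lastly, genes that varied with each member from sample to sample were named by correlation of log2 CPM after removal of the group means, over 24 samples. They are the highest among 10159 genes, so r is given as a description with no p. The points share library, scaling and depth. Myh7 had its closest match in Tnnt1, slow troponin T (Pearson's r 0.93, Spearman's rho 0.91). The next were Tnnc1 (r 0.84, rho 0.84) and Tnni1 (r 0.81, rho 0.81), which complete the slow troponin complex, and Atp2a2, the slow calcium pump (r 0.80, rho 0.81). With the 2 samples most distant from the Myh7 median left out, these r values were 0.91, 0.80, 0.77 and 0.72. All 4 belong to the slow fibre list. Smoke replicate 1, the highest in Myh7, was also the highest of the smoke samples in Tnnt1 (142.5 CPM, air maximum 93.0), Tnnc1 (17.95, air maximum 7.72) and Tnni1 (17.1, air maximum 7.53).

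Myh2 varied most closely with Mb, myoglobin (r 0.82, rho 0.80), and Myoz2, a calsarcin of slow and oxidative fibres (r 0.76, rho 0.79), then with Pla2g12a (r 0.73) and Fastk (r 0.71). Its lowest r was with Aplp2 (−0.86) and Prkab2, an AMP kinase subunit (−0.77). Mb itself fell in smoke, at 5861, 7720 and 8021 CPM in air and 4954, 5381 and 6632 CPM in smoke (log2 ratio −0.36, SE 0.061, edgeR adjusted p = 0.00107), and 9 of 13 smoke samples lay below every air sample. Gm49540 and Apol6 overlap Mb on the opposite strand. Myoz2 did not pass, with 271 ± 66.8 CPM in air and 278 ± 49.7 CPM in smoke. Within groups the r of Myh2 with Mb was 0.78 in air and 0.91 in smoke.

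Myh4 varied most closely with Tmem233 (r 0.89), Mybpc2, the fast myosin binding protein C (r 0.88), the glycolytic enzyme gene Pgm1 (r 0.88) and Gpc1 (r 0.88). Those values were 0.79, 0.79, 0.74 and 0.73 without the 2 samples farthest from the Myh4 median. Beside them, Myh4 had r −0.72 with the log2 TMM factor of the sample and Myh14 had −0.75, while the other 6 members had r between −0.37 and 0.17. The part of library composition in these matches was not tested. The r of Myh4 was −0.42 with Myh2 and −0.56 with Myh1, and Myh2 and Myh1 had r 0.30.

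**Figure D4:**
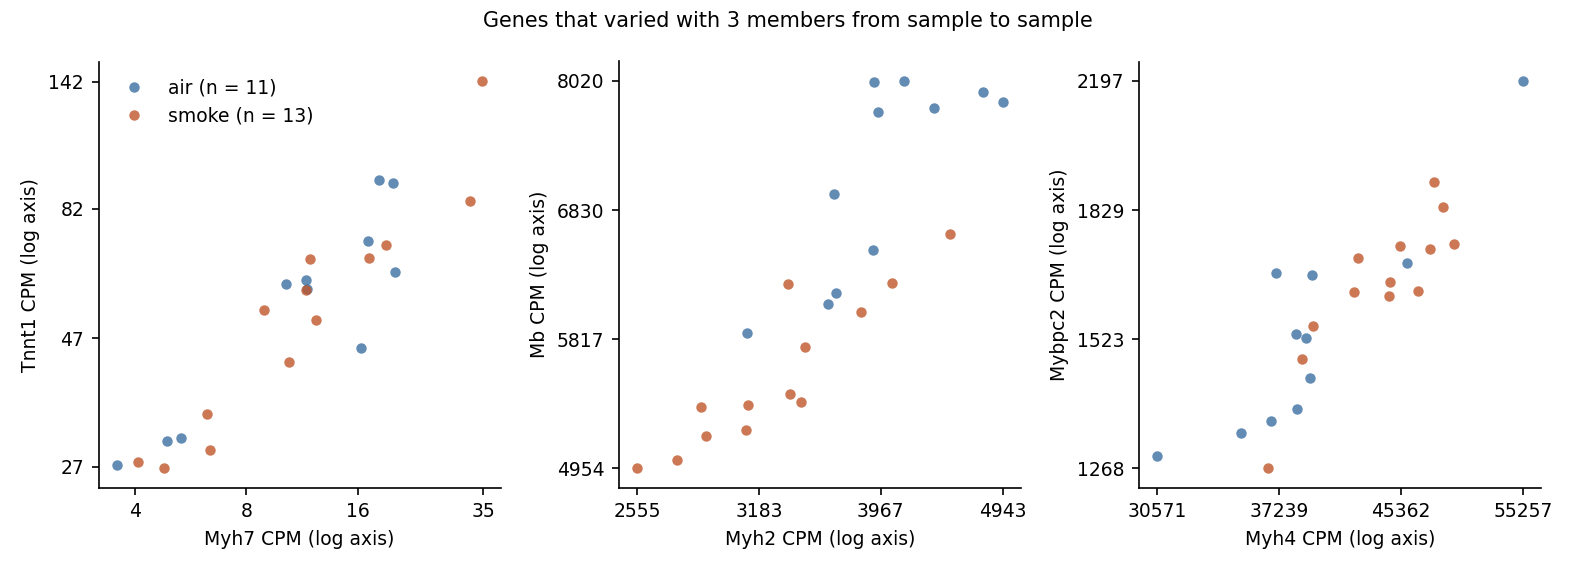
CPM (log axes) of Tnnt1 against Myh7, Mb against Myh2 and Mybpc2 against Myh4, with 1 point per sample in 11 air and 13 smoke samples. The Myh7 and Tnnt1 values of both groups lie along 1 band, while 9 of 13 smoke samples lie below every air sample in Mb, and air replicate 11 lies alone at 55257 CPM of Myh4.

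For the remaining members, the closest gene to Myh1 was Ddx21, an RNA helicase (r 0.81, rho 0.77), to Myh14 Sqstm1, an autophagy adaptor (r 0.81, rho 0.76), to Myh13 Vav3 (r 0.73, rho 0.76), to Myh8 Bphl (r 0.72, rho 0.59) and to Myh3 Fbxo4 (r 0.71, rho 0.74). Between Myh7 and the fast members r was between −0.084 (Myh4) and 0.17 (Myh2), and between the developmental genes Myh3 and Myh8 it was 0.17.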

How the data were processed

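Plantaris RNA of 24 samples was sequenced with the Lexogen QuantSeq 3′ FWD kit on an Illumina HiSeq, per the labels' protocols. The authors deposited raw read counts per Ensembl gene ID. The submitters' processing notes name STAR, DESeq2 and the build mm9, without roles; the annotation, strand setting and use of molecular identifiers were not given in the sources used here. Per the file headers all samples ran on lane 6, and the sheet numbers of the smoke samples all come before those of the air samples, so that sheet position and group cannot be told apart. Groups came from sample titles. Symbols came from GENCODE M21 (GRCm38; 99.1% of IDs matched), and its coordinates need not be those of the authors' build.

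Counts were fitted with edgeR 4.0.16 in R 4.3.3 on all samples (filterByExpr, minimum count 10, TMM, quasi-likelihood test without covariates), and a gene was called at a Benjamini-Hochberg adjusted p under 0.05. The log2 fold change of smoke over air carries an SE from the test statistic, and the approximate 95% interval is 1.96 SE on each side. Log2 CPM for correlations used a prior count of 2. The code was tested on simulated data. Alternatives were other scalings (upper quartile, RLE), no filter, voom in limma 3.58.1, DESeq2 1.42.0, removal of the 10 most abundant genes, a replicate block and leaving out each sample. Counts of the 133 same-group pairs differed by a chi-square of 2.51 to 18.7 per gene, so no sample was treated as a library read again. This check cannot tell whether samples came from separate mice.

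The members, gene lists and tests were chosen with earlier results of these data known. Genes named are the members; from each list the called genes and the 4 with the highest mean CPM; and for each member the 4 tested genes with the highest and the 2 with the lowest Pearson r, of which some are left out here. Other genes (Chrng, Mymk, Mymx, Nppb, Actn3, Myh6, Myh7b, Myh15, Myl2 and the genes overlapping a named gene) were named after their values were seen.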

Additional observations from a re-analysis of the deposited data

How the results depend on the processing

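Against 0 members called, DESeq2, limma voom and the fit with no expression filter each called 1, Myh2 (log2 fold changes −0.27, −0.27 and −0.27; adjusted p = 0.0372, 0.0488 and 0.0448; range over 7 alternatives 0.0372 to 0.0649, over samples left out 0.0159 to 0.129), and leaving out samples in turn called 0 to 2. DESeq2 called 329 genes in all (195 in edgeR), and the cause was not tested. Leaving out samples gave 1 to 3 slow fibre genes and 0 to 1 fast fibre genes. The log2 fold change of Myh1 reversed with DESeq2 (−0.0033) and with no filter (−0.0067) and ran from −0.040 to 0.033 over samples left out; that of Myh7 ran from −0.056 to 0.24. The other 6 members kept their direction under all alternatives run, Myh4 without a value when the 10 most abundant genes, itself included, were removed. Replicate numbers are shared between groups, but same-numbered samples did not deviate together (mean r −0.0059 over 11 pairs, −0.275 to 0.14). With the replicate number as a block, 0 members and 1 slow fibre gene (Csrp3, no longer Actn2) were called and Mybph was not, at a Myh2 log2 fold change of −0.32 (edgeR adjusted p = 0.0621). The fast, slow and developmental shares moved by less than 1 SD in the alternatives run, but their differences lay near 0 and changed sign (lowest −0.0023, −0.0049 and −0.00074 percentage points); the shares of single genes were not recomputed. Counts of 7 to 64 per sample limit Myh3, Myh8 and Myh13, and intervals cover no PCR copies.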
